A study of Mus musculus with 8 samples.

Results

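HTT ChIP-seq peaks that recurred between libraries in coding exons, away from any gene start, marked 888 regions of the mouse cortex genome. The regions were chosen by peak presence: peaks of the 4 HTT libraries on chromosomes 1 to 19 were merged wherever they overlapped by 1 bp or more, and a merged region was kept when at least 2 libraries had a peak in it and its midpoint lay in the coding sequence of a protein-coding gene, more than 1 kb from every annotated start site. Of 13861 recurring regions, 888 met this rule (6.41%, 95% Wilson interval 6.01 to 6.83). The midpoint lay in an internal coding exon, with coding exons on both sides, for only 500 of them (56.3%). The other midpoints lay in the last coding exon (258 regions, 29.1%), the first (60 regions, 6.76%) or the only coding exon of the gene (70 regions, 7.88%), so the set is called coding-exon regions here. Among windows that tile all eligible coding exons, 73.2% lay in internal, 18.4% in last, 4.12% in first and 4.25% in only coding exons. Internal exons thus held a smaller share of the regions than of the windows, and each other place a larger share. GC content and exon length were not held equal between these shares. The rule used the midpoint alone: 246 regions (27.7%) lay wholly in coding sequence, and 183 (20.6%) were less than 50% coding. Wilson intervals on shares cover counting error only, since neighboring regions and the libraries behind them are not independent.

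Huntingtin (HTT) is a large scaffold protein found in the cytoplasm and the nucleus, and an expanded CAG tract in exon 1 of its gene causes Huntington's disease. Chromatin immunoprecipitation recovers DNA fragments that are crosslinked, directly or through other proteins, to the antibody's target, and a peak is a place where these fragments pile up above the level in input chromatin. Promoters are often rich in CpG dinucleotides, whereas most coding exons are not, and long GC-rich coding exons occur in genes such as homeobox and forkhead factors, protocadherins and zinc-finger factors.

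The 4 libraries came from cortex of male B6 mice with a stated age of 4 months, 1 library for each combination of genotype (Htt+/+ or HttQ111/+) and treatment. Treated mice received 500 µg of a pan-huntingtin antisense oligonucleotide (HTT-ASO) by unilateral intracerebroventricular injection at that age. Their cortex was taken 4 weeks later on the side of the injection. The other mice received no treatment. HttQ111/+ mice are a heterozygous knock-in in which 1 Htt allele carries a human HTT exon 1 with an expanded CAG tract. Both genotypes were treated with the same ASO, which targets the normal and the mutant transcript, and the control mice received no injection, so the ASO cannot be told apart from the injection itself. According to the labels, chromatin from 3 mice was pooled for each ChIP with antibody EPR5526, although the study's methods give a smaller pool, so every group was 1 pooled sample and differences between libraries had no replicate check. Peak lists measure no RNA, so neither the tissue label nor the fall in Htt transcript could be checked in these values.

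The libraries were shallow: they held 1.10 to 1.36 ChIP reads per kb, as recovered from the deposited peak statistics, and 79.6% to 87.3% of their peaks rested on only 2 to 4 reads at the summit. The HttQ111/+ ASO library stood apart in its narrowest peak, 287 bp against 210 to 230 bp in the other libraries, which is the fragment length that peak calling assumed. All 4 lists were called against the same merged input. In a comparison of merged regions of every kind, 1.85% of recurring regions had a peak in all 4 libraries, against 26 of the 888 coding-exon regions (2.93%, 2.01 to 4.26).

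The sequence of the coding-exon regions is shown first for 5 members that had a peak in all 4 libraries, to set CG-dense windows (71.0% to 73.7% GC) beside windows near the lower quartile of the set (56.0% and 57.3% GC). Each line holds 300 bases around the midpoint of the region, from the mm9 genome, 5′ to 3′ on the coding strand of the gene, with every CG dinucleotide in capitals. The Neurl1a window (chr19:47327773-47328072, plus strand) lay inside coding exon 4 of 6 and held 51 CG dinucleotides. The Zfp771 window (chr7:134397566-134397865, plus strand) lay in coding exon 2 of 2 and held 50. The Fbrsl1 window (chr5:110792242-110792541, minus strand) lay in coding exon 19 of 19 and held 40. The Thbs2 window (chr17:14826966-14827265, minus strand) lay in coding exon 2 of 21 and held 11. The Ap1m2 window (chr9:21107019-21107318, minus strand) held 9, and its exon part, coding exon 6 of 11, ran from 21107067 to 21107215 with intron on both sides.
Neurl1a: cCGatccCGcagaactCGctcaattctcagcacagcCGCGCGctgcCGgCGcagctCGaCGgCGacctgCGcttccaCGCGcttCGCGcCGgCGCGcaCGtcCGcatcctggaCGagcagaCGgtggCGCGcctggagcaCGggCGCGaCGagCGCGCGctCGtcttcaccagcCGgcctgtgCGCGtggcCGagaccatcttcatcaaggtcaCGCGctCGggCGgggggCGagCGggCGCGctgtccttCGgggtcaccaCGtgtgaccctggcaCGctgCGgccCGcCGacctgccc
Zfp771: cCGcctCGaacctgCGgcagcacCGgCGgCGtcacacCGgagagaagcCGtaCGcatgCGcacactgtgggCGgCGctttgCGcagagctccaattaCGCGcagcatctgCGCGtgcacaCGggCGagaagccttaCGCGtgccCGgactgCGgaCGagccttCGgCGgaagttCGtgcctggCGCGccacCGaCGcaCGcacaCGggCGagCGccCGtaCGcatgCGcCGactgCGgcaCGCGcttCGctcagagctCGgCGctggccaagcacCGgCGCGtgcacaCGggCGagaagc
Fbrsl1: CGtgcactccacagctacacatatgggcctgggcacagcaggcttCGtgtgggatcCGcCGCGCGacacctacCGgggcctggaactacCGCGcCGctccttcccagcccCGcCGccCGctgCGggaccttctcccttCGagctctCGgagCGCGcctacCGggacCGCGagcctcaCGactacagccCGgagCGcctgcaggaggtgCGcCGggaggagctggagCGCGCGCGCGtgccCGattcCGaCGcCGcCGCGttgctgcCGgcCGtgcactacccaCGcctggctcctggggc
Thbs2: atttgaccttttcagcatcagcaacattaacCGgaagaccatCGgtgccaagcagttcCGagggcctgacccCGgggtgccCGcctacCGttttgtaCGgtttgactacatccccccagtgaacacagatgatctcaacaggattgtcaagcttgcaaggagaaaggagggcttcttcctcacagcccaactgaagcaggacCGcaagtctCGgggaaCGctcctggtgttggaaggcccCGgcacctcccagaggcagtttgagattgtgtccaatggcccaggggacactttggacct
Ap1m2: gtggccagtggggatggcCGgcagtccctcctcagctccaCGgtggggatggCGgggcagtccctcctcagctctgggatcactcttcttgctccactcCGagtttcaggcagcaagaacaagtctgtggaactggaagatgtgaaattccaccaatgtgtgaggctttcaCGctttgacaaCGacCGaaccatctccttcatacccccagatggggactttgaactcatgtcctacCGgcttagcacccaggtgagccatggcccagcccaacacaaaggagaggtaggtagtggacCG
The first 3 of these sequences exceeded the median of 32 CG dinucleotides in recurring start-site regions although they lay 6507 bp (Zfp771) to 24590 bp (Neurl1a) from the nearest start site, whereas the windows of Thbs2 and Ap1m2 were close to the median of 12 CG dinucleotides for the whole set.

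Compared with the genome, the regions were concentrated in coding sequence. Coding bases more than 1 kb from a start site made up 25299117 of 2393726033 ungapped bases of chromosomes 1 to 19 (1.06%), so the share of recurring regions there was 6.06 times the share of bases. When all midpoints were moved by 500000 bases, 1.47% lay in such coding sequence. For comparison, 3216 recurring regions (23.2%) lay within 1 kb of a start site, 3554 (25.6%) in introns and 5966 (43.0%) between genes. Of the 5578 merged regions of any recurrence with a coding midpoint, 15.9% (14.98 to 16.9) recurred, which was below the 23.5% of start-site regions and above the 6.89% of introns and the 7.51% of intergenic regions. Coding regions with a peak in 1 library only numbered 4690, and their highest summit held a median of 4 reads, against 6 in the recurring regions; a region with more reads in any library could also pass the threshold more easily in a second.

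The regions were richer in GC than coding sequence in general. Median GC content of the 300-base window was 61.0% (quartiles 56.3 to 66.0) in the 888 members, 49.7% in 84579 windows that tile all eligible coding exons, 71.0% in recurring start-site regions and 53.3% in recurring intron regions. The number of CG dinucleotides per window had a median of 12 in members, 5 in all coding windows, 32 at start sites and 4 in introns. Within 55% to 65% GC the difference in CG was small, with a mean of 10.6 CG in 463 members and 9.26 in 22330 coding windows. That band did not match composition fully, since 225 of the 463 members and 6207 of the 22330 windows lay at 60% to 65% GC.

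**Figure D1:**
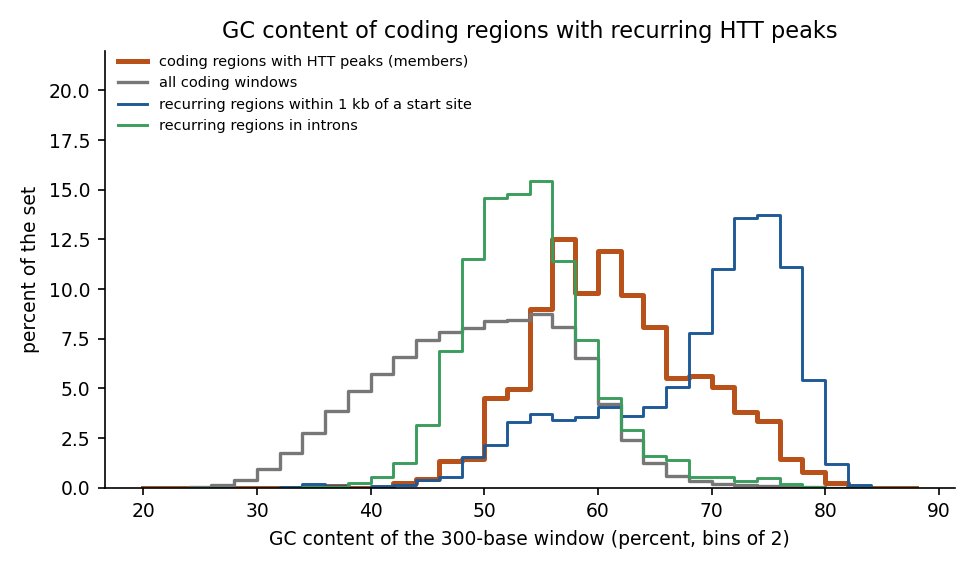
GC content of 300-base windows (x axis, percent, bins of 2) as percent of each set (y axis) for the 888 coding-exon regions, all 84579 coding windows, 3216 recurring start-site regions and 3554 recurring intron regions. The coding-exon regions had a median of 61.0% GC and sit between the coding windows (49.7%) and the start-site regions (71.0%).

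The density of recurring HTT peaks in coding windows rose at every step of GC content. Members per 1000 coding windows were 0.0800 (interval 0.0141 to 0.453) below 40% GC, 1.62 (1.11 to 2.36) at 45% to 50%, 14.8 (13.0 to 16.7) at 55% to 60%, 112 (95.5 to 131) at 65% to 70% and 290 (250.5 to 334) at 70% or more. The rise was also present within exons shorter than 200 bp, from 1.58 per 1000 at 45% to 50% GC to 110 per 1000 at 65% to 70%. GC content also changes how well fragments are amplified and sequenced, and the part this had in the rise was not tested.

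Exon length went with the regions as well. The coding exon that held the midpoint had a median length of 353.5 bp (quartiles 188 to 930) against 181 bp for all coding windows. Members per 1000 windows were 3.07 (2.20 to 4.29) in exons under 100 bp, 12.9 (10.96 to 15.2) at 200 to 300 bp and 23.8 (20.5 to 27.6) at 300 to 600 bp, then 14.5 (12.4 to 16.9) at 1200 bp or more. Among windows of 55% to 65% GC the values were 10.7 (6.92 to 16.4) under 100 bp and 31.5 (25.6 to 38.8) at 300 to 600 bp. At 1200 bp or more the value was 22.2 (17.6 to 27.8), so the longest exons did not stand above those of intermediate length. Position along the coding sequence showed little change: members per 1000 windows were 9.29 (7.74 to 11.1) in the opening 20% of the sequence and 11.99 (10.6 to 13.6) in the closing 20%.

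**Figure D2:**
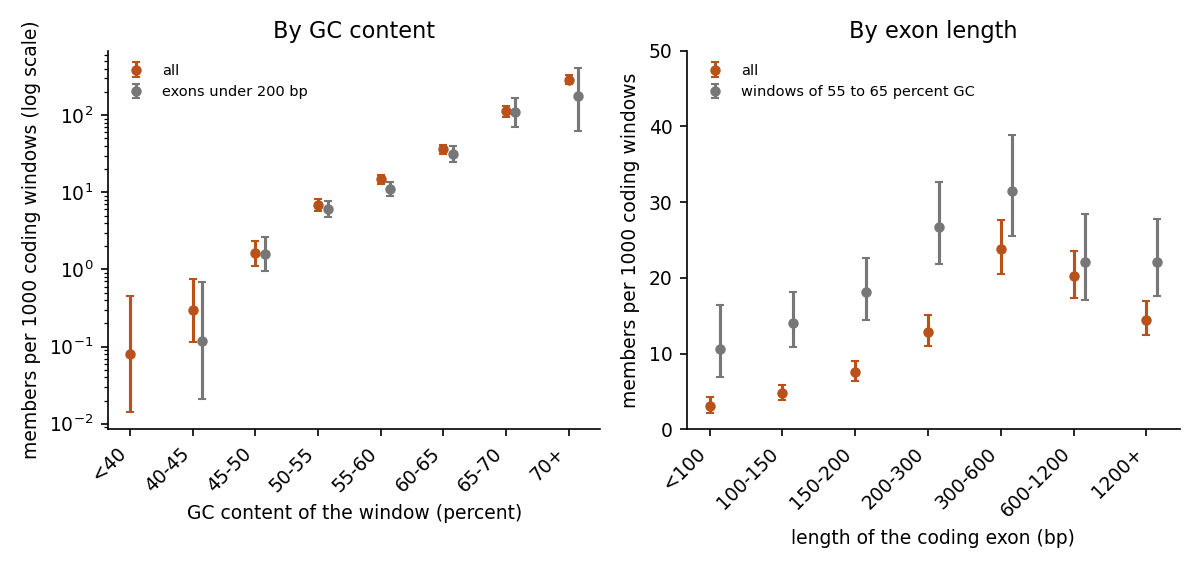
Coding-exon regions per 1000 coding windows of 300 bases (y axes; log scale on the left) by GC content of the window (left, percent) and by length of the coding exon (right, bp), with 95% Wilson intervals as bars. Values rise from 0.0800 below 40% GC to 290 at 70% or more and peak at 23.8 in exons of 300 to 600 bp; gray points give exons under 200 bp (left, where the lowest GC class held 0 members and is not drawn) and windows of 55% to 65% GC (right).

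CpG-rich windows, taken as at least 50% GC with an observed to expected CpG ratio of at least 0.6, formed a distinct subset. They made up 282 of the 888 members (31.8%, 28.8 to 34.9), against 4.78% of coding windows, 5.32% of recurring intron regions and 74.7% of recurring start-site regions. At 55% to 65% GC the shares were closer, 13.4% (10.6 to 16.8) of members and 8.79% (8.42 to 9.16) of coding windows. Their exons were longer (median 714.5 bp against 244 bp in the other 606 members), and only 30.9% lay in internal coding exons against 68.2% of the others. They held a median of 7 to 8 reads at the summit in the 4 libraries, against 4 to 5 reads in the other members. CpG-rich members were 25.1% of the regions with peaks in 2 libraries, 52.4% of those in 3 and 80.8% of those in 4; since recurrence was part of the rule, these shares are descriptions.

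Short motifs followed base composition for the most part. GGGCGG, the core letters of a GC box, was found on either strand in 22.4% of members and 7.76% of coding windows, but at 55% to 65% GC in 12.1% (9.43 to 15.4) of members and 15.5% (14.98 to 15.9) of windows. CACGTG, the E-box letters, was in 7.21% of members and 4.76% of windows, and in 7.34% and 6.70% within that GC band. CCCTC, the shared core letters of CTCF motifs, was in 67.5% and 52.9%, and in 72.1% and 74.1% within the band. Within the band, which did not match GC fully, the intervals of members and windows overlapped for each of these motifs.

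CAG repeats were examined because the tract that is expanded in the knock-in allele is one. A run of 3 or more CAG units on either strand, searched as CAGCAGCAG, was in 64 members (7.21%, 5.68 to 9.10), in 2.87% (2.76 to 2.98) of coding windows, in 6.59% of start-site regions and in 4.28% of intron regions. At 55% to 65% GC the shares were 7.56% (5.49 to 10.3) of members and 5.08% (4.80 to 5.38) of coding windows. On the coding strand the run read CAG in 32 members and CTG in 33, with 1 member holding both. The longest CAG run was 6 units, in Trp63 (encoding p63, a transcription factor of the p53 family), and Taf4a, a subunit of the general transcription factor TFIID, had 4. Their windows are printed with the run in capitals, on the coding strand, from chr16:25871011-25871310 (plus strand) and chr2:179666676-179666975 (minus strand).
Trp63: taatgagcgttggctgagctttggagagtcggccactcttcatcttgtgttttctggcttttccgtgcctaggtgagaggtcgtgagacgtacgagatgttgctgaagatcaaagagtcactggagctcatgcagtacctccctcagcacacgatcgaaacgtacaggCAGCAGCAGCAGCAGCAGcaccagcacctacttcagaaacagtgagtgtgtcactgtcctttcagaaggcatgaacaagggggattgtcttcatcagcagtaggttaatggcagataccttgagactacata
Taf4a: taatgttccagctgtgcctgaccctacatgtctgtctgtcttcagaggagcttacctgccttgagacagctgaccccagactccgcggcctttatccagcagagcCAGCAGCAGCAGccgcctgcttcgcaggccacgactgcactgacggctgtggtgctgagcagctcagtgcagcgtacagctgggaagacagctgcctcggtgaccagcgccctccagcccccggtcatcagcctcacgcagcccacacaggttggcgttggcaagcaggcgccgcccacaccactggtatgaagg
The Trp63 peak had a fold enrichment of 5.47 in Htt+/+ ASO and 4.41 in HttQ111/+ ASO, each from 3 reads, and no peak in either untreated library. The Taf4a peak had 5.09 in Htt+/+ untreated and 4.25 in HttQ111/+ ASO, each from 6 reads. Each had a peak in 2 libraries, Trp63 with fewer and Taf4a with more reads than the median of 5 in members. A library with no listed peak can still hold reads below the threshold. Htt itself had no member among its coding exons, and of 8 polyglutamine disease genes only Cacna1a, the P/Q-type calcium channel gene that is mutated in a spinocerebellar ataxia, had one.

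The 888 regions lay in 834 genes, 4.52% of the 18454 genes with eligible coding sequence. A single region was found in 783 of these genes, 2 regions in 48 genes and 3 regions in a few, among them Apc2 and Grin2d. A recurring region at the gene's own start site was found for 170 of the 834 genes (20.4%, 17.8 to 23.2), against 14.2% (13.7 to 14.8) of the 17620 genes with no coding-exon region. Density differed among chromosomes, from 20.5 regions per Mb of eligible coding sequence on chromosome 14 to 49.5 on chromosome 8.

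Among gene families, developmental transcription factors and cadherins held the most regions per Mb of coding sequence. Of 65 cadherin superfamily genes, which encode calcium-dependent adhesion proteins, 20 held a region (30.8%, 20.9 to 42.8), at 95.3 regions per Mb of coding sequence against 35.03 over all genes. They included Pcdh8, Pcdh1, Pcdh10, Dchs1, Celsr3 and 8 genes of the clustered protocadherins (7 Pcdhb genes and Pcdha11), whose variable exons are near-identical copies in part, so reads may be shared among them. In Pcdh8 the stronger of 2 regions (chr14:80168269-80169294, first coding exon) had fold enrichments of 4.72 (untreated) and 5.52 (ASO) in Htt+/+ and 3.43 in untreated HttQ111/+, from 7, 9 and 8 reads, with the treated HttQ111/+ library at no peak. Of 130 developmental transcription factor genes of the homeobox, forkhead, Sox, Pax and Pou families, 20 held a region (15.4%, 10.2 to 22.6), at 202 regions per Mb. Median GC of coding windows in these lists was 52.7% and 58.0%, against 49.7% over all genes.

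Several of these regions had strong peaks in some libraries and none in others. In Foxd1, a forkhead factor of the developing kidney and forebrain with 1 coding exon, the Htt+/+ libraries had a fold enrichment of 3.48 (untreated, 4 reads) and 12.1 (ASO, 11 reads), and HttQ111/+ had 10.2 when untreated (8 reads) and no peak with ASO. In Foxc2, which acts in mesenchyme and lymphatic vessels, it had 2.91, 5.55 and 3.13 in Htt+/+ untreated, Htt+/+ ASO and HttQ111/+ ASO, from 6, 9 and 9 reads. Hoxb2, a hindbrain patterning factor, had 7.98 (17 reads) and 8.79 (13 reads) in the untreated libraries of Htt+/+ and HttQ111/+ and no peak in either ASO library. Foxo6, a forkhead factor expressed in brain, held 2 regions. Their coding exons are annotated at chr4:119940281-119940598 and chr4:119940600-119941787, so they form a nearly continuous coding stretch.

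Genes of neuronal signaling are given next, against 4.52% of all genes with a region. Of 110 calcium, sodium and potassium channel genes, 11 held a region (10%, 5.68 to 17.02), among them the calcium channel genes Cacna1a, Cacna1b, Cacna1c, Cacna1g, Cacna1h and Cacna1i. The Cacna1a region (chr8:87083260-87083653, coding exon 19 of 47) had fold enrichments of 6.01, 6.15 and 4.16 in Htt+/+ untreated, Htt+/+ ASO and HttQ111/+ untreated, from 9, 10 and 6 reads. Of 43 glutamate and GABA receptor genes, 3 held a region (6.98%, with an interval of 2.401 to 18.6 that includes the share over all genes): Grin2d, Grin2c and Grik5. The Grik5 region, in the last coding exon of this kainate receptor subunit, had 5.27 (16 reads), 3.37 (11 reads) and 3.73 (11 reads) in Htt+/+ untreated, Htt+/+ ASO and HttQ111/+ untreated. Of 22 synaptic scaffold genes, 5 held a region (22.7%, 10.1 to 43.4): Shank1, Bsn, Pclo, Rims3 and Ank1. Per Mb of coding sequence, the channel, receptor and scaffold lists held 63.0, 57.7 and 63.9 regions, against 35.03 over all genes. Shares of genes do not take the length of coding sequence into account. Bsn, the presynaptic scaffold bassoon, had its region in a coding exon of 6642 bp, with 2.73, 6.65 and 3.596 in Htt+/+ untreated, HttQ111/+ untreated and HttQ111/+ ASO.

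The remaining lists are given by their counts, against 4.52% of all genes. Of 357 zinc finger genes with Zfp symbols, 21 held a region (5.88%, 3.88 to 8.82), and of 76 chromatin modifier genes 7 did (9.21%, 4.53 to 17.8), among them Mll1, Kdm4a, Setd2 and Tet3. Plexins and semaphorins had 3 of 27 (11.1%) and leucine-rich repeat adhesion genes 4 of 35 (11.4%, with 91.0 regions per Mb of coding sequence). Collagens and laminins had 7 of 53 (13.2%) and the LDL receptor and Notch family 1 of 22 (4.55%). Set against 35.03 regions per Mb over all genes, chromatin modifiers held 26.5, collagens and laminins 34.6 and the LDL receptor and Notch family 11.2. Zfp genes held 38.5 and plexins and semaphorins 39.8. Of 13 genes that mark striatal projection neurons, 1 held a region, Bcl11b, which encodes the transcription factor CTIP2 and is expressed in deep-layer cortical neurons too. Its region lay in the last coding exon, with 5.09 (6 reads) and 5.62 (11 reads) in the 2 Htt+/+ libraries and no peak in either HttQ111/+ library. Olfactory receptors, whose coding windows had a median of 43.7% GC, had a region in 1 of 234 genes (0.427%, 0.0755 to 2.38). These genes held only 64.3 kb of coding sequence under the rule. This 1 region gave 15.5 per Mb, against 35.03 over all genes. Olfactory receptors had the lowest and developmental factors the highest median GC of the lists examined, and lengths of exon and gene were not held equal between lists. Regions per Mb did not follow median GC in every list. The LDL receptor and Notch family, with 1 region, had 54.0% GC and the lowest density. Zfp genes had 46.7% GC, below the 49.7% over all genes, and a density slightly above that of all genes.

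Apc2 and Grin2d each held 3 regions. In Apc2, a neuronal relative of the tumor suppressor APC, the regions lay in coding exon 9 of 15 and, for 2 of them, in the 4990-bp last exon. The region at chr10:79777476-79778217 reached a fold enrichment of 11.5 (15 reads) without and 2.69 (6 reads) with ASO in Htt+/+, and 4.57 (8 reads) in untreated HttQ111/+. In Grin2d, an NMDA receptor subunit, 2 regions lay in the last coding exon at 80.3% and 76.3% GC and 1 in coding exon 2 of 12. None of the regions in Apc2 and 1 region in Grin2d had a peak in HttQ111/+ ASO, a library with a peak in only 35.02% of all members.

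Among genes with 2 regions, Rnf126, a ubiquitin ligase gene, had peaks in 4 and 3 libraries. The region at chr10:79224659-79225028, in coding exon 4 of 9, had fold enrichments of 4.72, 6.34, 5.20 and 4.47 in Htt+/+ untreated, Htt+/+ ASO, HttQ111/+ untreated and HttQ111/+ ASO, from 7, 8, 6 and 8 reads. Crb2, which encodes an apical polarity protein, had a region in all 4 libraries with 2.14, 4.34, 4.83 and 2.64 in the same order. In Cacna1b, the N-type calcium channel gene, both regions had peaks in 3 libraries and neither in HttQ111/+ untreated. Ep400, a chromatin remodeler gene, had its strongest peak in HttQ111/+ untreated, at 10.2 from 6 reads, in its last coding exon. The other genes of this group were Gm996, C1qtnf4 and Heatr7b1.

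Together, the 26 members that all 4 libraries shared had summed reads of 216, 217, 198 and 197 in Htt+/+ untreated, Htt+/+ ASO, HttQ111/+ untreated and HttQ111/+ ASO. Their median fold enrichment was 5.63, 5.40, 5.39 and 3.72 in the same order, and HttQ111/+ ASO was the lowest of the 4 libraries in 18 of the 26. Of these regions 21 were CpG-rich. The fold enrichment was lower with ASO in 14 of 26 regions in Htt+/+ and in 23 of 26 in HttQ111/+, and it was lower in both genotypes in 12, higher in both in 1 and moved in opposite directions in 13. Named next are the 10 whose weakest library was highest.

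The highest fold enrichment of any member was in Fbrsl1, a gene related to the autism-associated factor AUTS2. Its region in the last coding exon (chr5:110792038-110792745, the sequence printed above) had fold enrichments of 14.3, 13.1, 8.04 and 4.003 in Htt+/+ untreated, Htt+/+ ASO, HttQ111/+ untreated and HttQ111/+ ASO, from 13, 11, 7 and 5 reads. Both Htt+/+ libraries were above both HttQ111/+ libraries there. The same order of genotypes held for Mtap7d1, a microtubule-associated protein gene, at 8.52, 8.02, 5.29 and 4.06 from 9, 9, 5 and 6 reads. Neurl1a, the neuralized ubiquitin ligase gene whose window held 51 CG dinucleotides, had 8.25, 5.24, 5.48 and 5.69 from 14, 12, 8 and 14 reads. In Zfp771, a C2H2 zinc finger gene, the highest value was in HttQ111/+ untreated: 4.81, 5.55, 8.89 and 3.997 from 7, 9, 12 and 8 reads.

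Zfp316 had 7.06, 5.07, 6.97 and 4.32 from 15, 15, 12 and 11 reads, in a last coding exon of 2354 bp, and both untreated libraries were above both ASO libraries. Zfp580 had 5.37, 7.10, 7.47 and 5.54 from 8, 9, 11 and 10 reads, with neither genotypes nor treatments apart. Both genes encode zinc finger proteins, and Rnf126, the remaining region of this group in a CG-richer exon, is described above. The regions with few CG dinucleotides rested on few reads: Ap1m2, an epithelial clathrin adaptor subunit gene, had 6.76, 4.89, 7.23 and 6.18 from 4, 3, 4 and 5 reads. Thbs2, which encodes the matrix protein thrombospondin 2, had 7.58, 4.68, 4.13 and 5.72 from 4, 3, 2 and 4 reads. E230008N13Rik had 4.82, 5.90, 4.74 and 3.89 from 3, 4, 4 and 4 reads, and at such counts a difference of 1 read changes the value markedly.

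**Figure D3:**
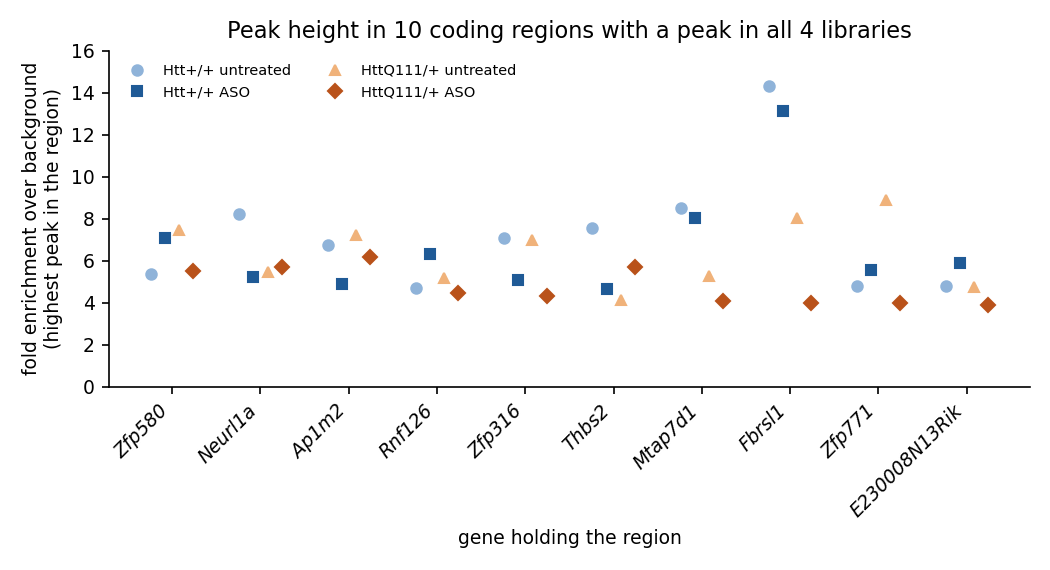
Fold enrichment of the highest peak (y axis) in each of the 4 libraries for the 10 coding-exon regions named above (x axis, by gene); each point is 1 library and there are no replicates, so no error is drawn. HttQ111/+ ASO lies lowest for 6 of the 10 regions, and Fbrsl1 has the widest spread, from 14.3 to 4.003.

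The regions that were lower with ASO in both genotypes by the largest mean change were in Neurl1b, Scrt1, Camk2n1 and Pcdhb5. Scrt1, a neuronal zinc finger repressor gene, had 6.01 and 5.02 in Htt+/+ untreated and ASO and 9.33 and 3.72 in HttQ111/+ untreated and ASO. Camk2n1, an inhibitor of calcium/calmodulin-dependent kinase II, had 7.44 and 4.93, then 4.56 and 2.43, with its midpoint 1017 bp from a start site. Neurl1b, a paralog of Neurl1a with its region in a like-sized exon (693 bp against 690 bp), had 7.30 and 3.47, then 2.60 and 2.23. Pcdhb5 had 4.29 and 3.17, then 10.7 and 5.89. Ier5l, an immediate early response gene, was the region higher in both genotypes, with 5.90 and 6.15, then 2.502 and 3.72. Summit reads in Htt+/+ untreated, Htt+/+ ASO, HttQ111/+ untreated and HttQ111/+ ASO were 9, 6, 11 and 8 in Scrt1. In the same order they were 11, 8, 6 and 6 in Camk2n1 and 11, 9, 6 and 8 in Neurl1b. Pcdhb5 had 5, 5, 7 and 5 reads, and Ier5l had 7, 10, 5 and 8. Reads thus did not fall with ASO for Neurl1b and Camk2n1 in HttQ111/+ or for Pcdhb5 in Htt+/+. These regions were selected on the direction of change in fold enrichment and their values are descriptions.

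Across all members, a region was counted as lower in a library when its fold enrichment was lower or when only the other library had a peak. In Htt+/+, 426 of 802 regions with a peak in either library were lower with ASO (53.1%, 49.7 to 56.5), against 52.2% of all recurring regions. In HttQ111/+, 577 of 768 were lower with ASO (75.1%, 72.0 to 78.1), against 69.9% of all recurring regions, 88.2% of start-site regions and 63.6% of intron regions. Between genotypes, 340 of 829 were lower in HttQ111/+ than in Htt+/+ without treatment (41.0%, 37.7 to 44.4; all recurring regions 42.4%), and 464 of 683 with ASO (67.9%, 64.3 to 71.3; all recurring regions 66.7%). The coding-exon regions thus followed the background in 3 comparisons, and in the ASO comparison of HttQ111/+ their interval lay above it. The 4 comparisons share libraries in pairs, and regions of 1 library pair are not replicates of the treatment.

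The difference in HttQ111/+ lay largely in which regions had a peak: 457 members had one only in the untreated library, 139 only in the ASO library and 172 in both. Among the 172, 120 (69.8%) had the lower fold enrichment with ASO, with a median log2 ratio of -0.30, against 70.8% and -0.31 over all recurring regions with a peak in both. Read numbers gave another picture, because the summed reads at these summits were 867 without and 989 with ASO, a ratio of 1.14. Divided by each library's reads per kb, 51.7% of the 172 were lower with ASO, against 55.1% of all such recurring regions. Divided by the reads expected over 1 base, which also takes in the assumed fragment length of 287 bp against 210 bp, 87.8% were lower, against 89.6%. On these measures the members were no more often lower than recurring regions in general. The ASO library of HttQ111/+ therefore went with a wider assumed fragment as well as with the treatment, and their parts in the result cannot be told apart with 1 library a group. Dividing fold enrichment by the library median left 68.1% lower.

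CpG-rich members differed from the others in which libraries held them. In Htt+/+, 66.3% of CpG-rich members had a peak without and 75.5% with ASO, against 59.9% and 47.7% of the other members. In HttQ111/+, 77.3% of CpG-rich members had a peak without and 26.2% with ASO, against 67.8% and 39.1% of the others. The HttQ111/+ ASO library thus had the lowest share in both subsets. In HttQ111/+, 209 of 243 CpG-rich members (86.0%, 81.1 to 89.8) and 368 of 525 others (70.1%, 66.0 to 73.9) were lower with ASO. In Htt+/+, the shares were 44.9% (39.2 to 50.8) and 57.4% (53.2 to 61.6), in the other order. Between genotypes under ASO they were 84.3% (79.1 to 88.4) and 59.4% (54.8 to 63.8), and without treatment 39.9% and 41.6%. CpG-rich members were near the start-site regions in each of these comparisons (46.4% and 88.2% lower with ASO in Htt+/+ and HttQ111/+).

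**Figure D4:**
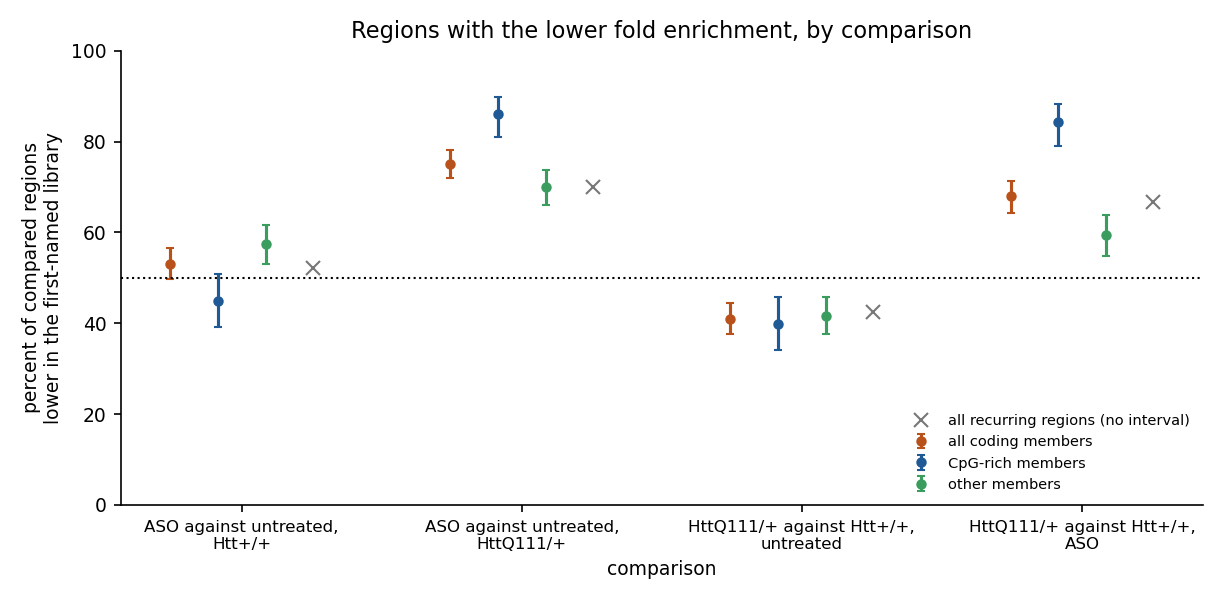
Percent of compared regions with the lower fold enrichment, or no peak, in the first-named library (y axis) for the 4 comparisons (x axis); circles give all coding-exon members, CpG-rich members and other members with 95% Wilson intervals, crosses all recurring regions, and the dotted line 50%. CpG-rich members reach 86.0% for ASO in HttQ111/+ and 44.9% for ASO in Htt+/+, while other members sit at 70.1% and 57.4%.

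Per library, 550, 502, 629 and 311 of the 888 members had a peak in Htt+/+ untreated, Htt+/+ ASO, HttQ111/+ untreated and HttQ111/+ ASO (61.9%, 56.5%, 70.8% and 35.02%). Median fold enrichment of these peaks was 4.72, 4.83, 4.98 and 4.25, and the median was 5 reads in every library. Of all peaks of each library, 10.7%, 12.8%, 13.3% and 5.36% lay within 1 kb of a start site, in the same order of libraries. The share of a library's peaks that lay in coding sequence away from start sites, recurring or not, did not depend on the merging. For Htt+/+ it was 3.97% (3.79 to 4.16) without treatment and 4.01% (3.82 to 4.21) with ASO, and for HttQ111/+ it was 5.03% (4.83 to 5.23) and 2.65% (2.49 to 2.81). HttQ111/+ ASO was the lowest and HttQ111/+ untreated the highest, as at start sites, while the Htt+/+ libraries did not differ beyond counting error. The mean log2 ratio of ASO to untreated over both genotypes was -0.46, with an exact one-sided permutation p of 0.5 over 4 relabellings, where 0.25 is the smallest p the design allows. In peaks with 5 or more reads this mean was -0.23 (p 0.25 by the same exact test), with log2 ratios of -0.14 in Htt+/+ and -0.32 in HttQ111/+. The mean log2 ratio of HttQ111/+ to Htt+/+ was -0.13, with an exact two-sided permutation p of 1 (smallest possible 0.5), and -0.027 in peaks with 5 or more reads.

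**Figure D5:**
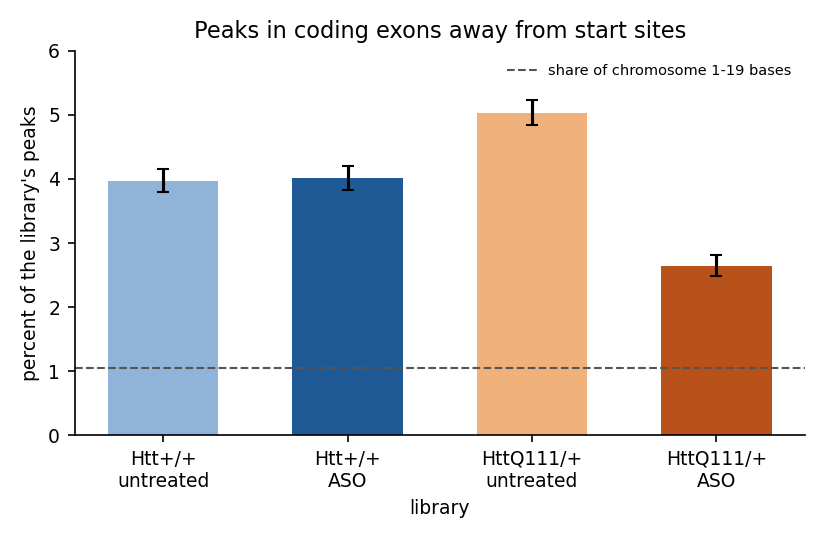
Percent of each library's peaks whose midpoint lay in coding sequence over 1 kb from a start site (y axis, from 0), by library (x axis), with 95% Wilson intervals for counting error; the dashed line is the share of genome bases, 1.06%. The bars range from 2.65% in HttQ111/+ ASO to 5.03% in HttQ111/+ untreated.

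The most reads at a summit were found at multi-copy loci. Sfi1 held members with up to 41 and 30 reads, and Dux, a homeobox gene in tandem copies, held one with up to 38, but their fold enrichments were only 2.16 to 3.89. Reads from near-identical copies cannot be assigned to 1 of them, and no list of artefact-prone loci was used here, so these values are uncertain. Outside these genes the most reads were 17, in C2cd4a, E130309D14Rik and Hoxb2.

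Recurring coding regions lay on both sides of the 1-kb limit, and their density by distance was not tested. Of 1921 recurring regions with a coding midpoint, 1033 lay within 1 kb of a start site, and 176 members lay from 1 to 2 kb away. Just outside the limit were Mdm2 (1002 bp, fold enrichments of 4.06 and 4.41), Jakmip1 (1007 bp, 5.09 and 4.71) and Gif (1011 bp, 6.45 and 7.11), each with a peak in 2 libraries. Just within it were Ccdc13 (993 bp, 3.03 and 3.92), Sft2d3 (992 bp, 4.21 and 3.84) and Eif4g1 (987 bp, 7.72 and 2.92), also in 2 libraries each. Values on the 2 sides overlapped.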

How the data were processed

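HTT ChIP-seq of mouse cortex was analysed from 4 narrowPeak lists, 1 per group, with 8 samples in the series; the 4 input samples, merged by the authors into 1 control, were not analysed here. Per the labels the authors used bcl2fastq 2.17, HISAT2 and MACS2, and by the methods down-sampled the ChIP reads to the smallest library. The depth recovered from the deposited lists was nonetheless unequal, at 1.10 to 1.36 ChIP reads per kb, and the reason was not tested. The labels name mm9 and the methods another build; coordinates were read as mm9 with GENCODE vM1. The deposited columns used were fold enrichment, a ratio to background, and −log10 p and −log10 q values; the deposited integer score was not used beyond a check against −log10 p. The lowest −log10 p was 3.00.

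Reads at each summit and reads per kb were recovered from fold enrichment and p by the MACS2 formulas, with whole reads for 100% of peaks within a tolerance of 0.01 in log10 p; the method was tested on simulated data, as was merging. Peaks on chromosomes 1 to 19 (169524) were merged at 1 bp overlap. GC, CG counts and motifs were taken in 300-base windows around midpoints. Wilson 95% intervals and exact permutation tests used scipy 1.17.1, with numpy 2.4.6, pandas 2.3.3 and pysam 0.24.0 in Python 3.11.15; figures used matplotlib 3.10.9.

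The members, gene lists and rules for named genes were chosen with earlier results of these data known. Named were up to 10 members with a peak in all 4 libraries by their weakest fold enrichment, 10 genes with several members by summed libraries, up to 4 members lower and 4 higher with ASO in both genotypes by mean change, and up to 3 genes per list; other named genes were chosen after their values were seen. A result that the rules would name is not reported here. Alternatives were a q cut of 0.01, other recurrence and start-site limits, summits in place of midpoints, omission of each library, and other measures of peak height.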

Additional observations from a re-analysis of the deposited data

Results flagged for a closer look

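The share of a library's peaks in coding exons away from start sites changed differently with ASO in the 2 genotypes: the log2 ratio of ASO to untreated was 0.0133 in Htt+/+ and -0.93 in HttQ111/+. Seen the other way, the log2 ratio of HttQ111/+ to Htt+/+ was 0.34 without treatment and -0.60 with ASO. In peaks with 5 or more reads these 4 ratios were -0.14, -0.32, 0.063 and -0.12, in the same order. The share of peaks within 1 kb of a start site was 10.7% without and 12.8% with ASO in Htt+/+. In HttQ111/+ it was 13.3% without and 5.36% with ASO, so the lower share there was not particular to coding exons. With 1 library in each group these differences were not tested. Beside them, the HttQ111/+ ASO library had the longest assumed fragment (287 bp against 210 to 230 bp).

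Chromosome X was outside the rule for the regions. The same steps gave 201 recurring regions there, of which 6 (2.99%) had a coding midpoint over 1 kb from a start site.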

How the results depend on the processing

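The 888 coding-exon regions became 190 when a peak in at least 3 libraries was asked for and 26 with all 4. Leaving out each library in turn gave 424 to 684 regions: 424 without HttQ111/+ untreated, 496 without Htt+/+ untreated, 536 without Htt+/+ ASO and 684 without HttQ111/+ ASO, since with fewer libraries fewer regions can recur. The share of recurring regions in coding exons moved from 6.41% to 7.16% with q below 0.01, 8.40% at 3 libraries, 10.2% at 4 and 5.14% beyond 2 kb from a start site, and was 6.10% to 7.05% without each library in turn. A q below 0.01 left 741 regions and the summit in place of the midpoint 906.

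For ASO in HttQ111/+, 75.1% of members were lower by fold enrichment; restricting to members that both libraries called gave 69.8%, and the value was 68.1% after division by the library median, 51.7% in reads relative to reads per kb and 87.8% in reads relative to the reads expected over 1 base, a setting chosen after seeing the data. For HttQ111/+ against Htt+/+ without treatment, 41.0% became 47.8% with the library median and 36.9% with expected reads; with ASO, 67.9% became 61.8% with the library median, 62.3% with reads per kb and 85.4% with expected reads. The cause of these moves was not tested. For ASO in Htt+/+ the settings tried gave 50.4% to 53.7%. These shares stayed on the same side of 50%, but some lay close to it. The main interval for ASO in Htt+/+ (49.7 to 56.5) included 50%, and reads per kb gave 51.7% for ASO in HttQ111/+. For the share of a library's peaks in coding exons, the mean log2 ratio of ASO to untreated was -0.46 and ranged from -0.48 to -0.23 over the settings, lowest in size with 5 or more reads. The Htt+/+ ratio changed sign, from 0.0133 to -0.0010 with summits, -0.032 beyond 2 kb and -0.14 with 5 or more reads, which gave the smallest exact p of 0.25 in place of 0.5; with q below 0.01 it was 0.024. The mean log2 ratio of HttQ111/+ to Htt+/+ was -0.13 and ranged from -0.22 to -0.027. Depth limits every value: most peaks rested on 2 to 4 reads. No paired analysis was possible because replicate numbers had nothing to pair with 1 library a group; the exact tests relabelled treatment within genotype and genotype within treatment.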
